A study of Arabidopsis thaliana with 11 samples.

Results

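The small MYB genes related to CAPRICE and the genes of the protein complex that they hold in check form a set of 9, and it was followed through the induction of the stomatal regulator SPEECHLESS (SPCH) in Arabidopsis thaliana seedlings. The genes were taken from the deposited expression table by locus identifier, 9 of 33602 genes. No measured value entered that rule, but the set was proposed with earlier results of these data known. They are CPC (AT2G46410), TRY (AT5G53200), ETC1 (AT1G01380), ETC2 (AT2G30420), CPL3 (AT4G01060), GL3 (AT5G41315), EGL3 (AT1G63650), TTG1 (AT5G24520) and WER (AT5G14750). Poly-A RNA came from whole light-grown seedlings, 4 days old. One line was the Columbia wild type (WT), and the other (iSPCH) carried ESTpro:SPCH1-4A-YFP, a YFP-tagged form of SPCH under estradiol control. Both lines were sampled without treatment (0 h) and after 6 h or 8 h in 10 µM beta-estradiol. Each of the 6 groups had 2 libraries, apart from untreated WT with 1, so that 11 libraries were compared. WT had no construct and no seedlings were mock treated. Effects of the construct beyond SPCH cannot be told apart from those of SPCH in the line differences, nor can estradiol, handling and elapsed hours in the changes over time.

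In the plant epidermis an R2R3 MYB protein (WER in the root and hypocotyl, GL1 in the shoot), a bHLH protein (GL3 or EGL3) and the WD40 protein TTG1 join in a complex that switches on GLABRA2 (GL2). In the shoot this leads to a trichome and in the root to a cell without a hair. The complex also switches on single-repeat MYB genes such as CPC and TRY, whose small products move to neighbouring cells, take the place of the R2R3 MYB at the bHLH protein and so keep those neighbours from the same fate. SPCH is itself a bHLH protein, which starts the stomatal lineage in the shoot epidermis.

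The results turn on a pair of single-repeat MYB genes, CPL3 (also known as ETC3) and ETC2, and on TCL2, a single-repeat MYB gene that lies next to ETC2. Their promoters are shown because proteins of the bHLH class bind E-boxes (CANNTG). Each sequence is the 250 bases before the RefSeq gene start in TAIR10.1, read 5′ to 3′ on the gene's own strand, with E-boxes in capitals. They lie at chr4:460145-460394 (plus strand) for CPL3, chr2:12962163-12962412 (minus strand) for ETC2 and chr2:12965724-12965973 (minus strand) for TCL2.
CPL3: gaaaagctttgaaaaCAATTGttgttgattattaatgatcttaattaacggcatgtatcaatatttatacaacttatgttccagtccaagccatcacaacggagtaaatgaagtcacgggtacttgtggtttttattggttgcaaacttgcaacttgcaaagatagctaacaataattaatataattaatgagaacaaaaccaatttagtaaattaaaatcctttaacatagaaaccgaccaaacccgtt
ETC2: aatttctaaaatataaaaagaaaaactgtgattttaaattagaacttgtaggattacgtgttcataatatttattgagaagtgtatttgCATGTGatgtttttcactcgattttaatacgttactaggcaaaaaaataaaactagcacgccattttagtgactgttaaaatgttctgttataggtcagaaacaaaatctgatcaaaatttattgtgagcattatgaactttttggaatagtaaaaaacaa
TCL2: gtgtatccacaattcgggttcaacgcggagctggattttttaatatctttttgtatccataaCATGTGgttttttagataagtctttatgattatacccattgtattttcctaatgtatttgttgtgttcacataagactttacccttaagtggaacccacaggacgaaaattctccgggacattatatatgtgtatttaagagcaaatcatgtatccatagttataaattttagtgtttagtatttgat
Each of these promoters held 1 E-box, at -235 in CPL3, -161 in ETC2 and -188 in TCL2, counted from the gene start. In the window from 250 bases before to 50 bases after the start, on both strands, an E-box was present in 7 of the 9 genes, the exceptions being CPC and EGL3, and in 61.6% of 26711 promoters of all genes. The G-box (CACGTG), which is a kind of E-box, was in none of the 9 and in 7.79% of all promoters. The MYB core (AACNG) was found in 5 of the 9, with 4 matches in CPC, 5 in CPL3, 3 in ETC2, 2 in ETC1 and 1 in GL3, and in 76.6% of all promoters. The L1 box (TAAATGCA or TAAATGTA), the element of genes of the outermost cell layer, was in none of the 9 and in 5.13% of all.

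Normalised read counts are given per library, and within a group A names the deeper library and B the shallower, since neither could be tied to a replicate number. Differences are log2 changes with their standard error (SE), and a gene was called at an adjusted p (limma, Benjamini-Hochberg) below 0.05 over the 19668 genes tested. All 9 genes passed the filter on low values, which asked for 2 or more libraries with a CPM of 1 or more. TRY, ETC1 and GL3 reached that CPM in untreated libraries only, so they were tested because they were higher there, and their fall with time is a description. Whether paired libraries came from separate cultures is not stated, and p-values therefore measure only the spread between these samples, which may be technical. Assigned reads were 15.55M to 32.81M per library. Induction was clear in the values, with SPCH at 37224 to 41639 in the 4 induced iSPCH libraries and at 99.5 to 232 in the other 7. The 4 stomatal lineage markers (TMM, EPF2, POLAR, BASL) together held 2902 to 5016 in induced iSPCH and 274 to 361 in estradiol-treated WT. Untreated, they held 541 in WT and 509 to 602 in iSPCH. All 4 were called lower in WT at 8 h against 0 h, where 29.9% of all genes were called lower. In whole seedlings fewer cells of a type and less RNA per cell cannot be told apart.

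CPL3 was the member that parted the lines. This single-repeat MYB limits trichome formation in the shoot (chr4:460395-461246, plus strand). Its normalised count was 50.1 in untreated WT, 12.3 and 14.1 in WT at 6 h, and 9.60 and 9.07 in WT at 8 h. In iSPCH it was 45.8 and 57.4 untreated, 55.2 and 47.6 at 6 h, and 63.7 and 63.4 at 8 h. Every induced iSPCH library thus stood near the untreated level or a little above it, and every estradiol-treated WT library stood far below. Those treated WT values rest on few reads, 13 and 14 at 6 h and 11 and 8 at 8 h. Each of them lay below a CPM of 1, so the size of the differences is uncertain. The iSPCH level was higher by 1.88 ± 0.26 at 6 h (3.69-fold, adjusted p = 0.000753) and by 2.64 ± 0.26 at 8 h (6.25-fold, adjusted p = 9.88e-06). Before induction the lines differed by 0.03 ± 0.32 (95% interval -0.64 to 0.70). The gap at 8 h exceeded that at 0 h by 2.61 ± 0.41 (adjusted p = 0.00254), and the gap at 6 h by 1.85 ± 0.41, which missed the threshold (adjusted p = 0.0527).

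Seen within each line, the CPL3 difference arose with a fall in WT. From 0 h WT fell by 1.85 ± 0.32 at 6 h (adjusted p = 0.000143) and by 2.31 ± 0.32 at 8 h (adjusted p = 1.5e-05), both against the same single untreated library. In iSPCH the change from 0 h was -0.000325 ± 0.26 at 6 h (95% interval -0.55 to 0.55) and 0.31 ± 0.26 at 8 h (95% interval -0.24 to 0.85, adjusted p = 0.304). Among the 5 single-repeat MYB genes of the set, CPL3 was the one called between the lines at both hours. The count of members called at 6 h was 2 of 9 (CPL3 higher, ETC2 lower), where 4.73% of all genes were called, 1.16% higher and 3.57% lower. At 8 h it was 1 of 9, which is near the 10.7% of all genes (4.75% higher, 5.98% lower), so the count itself sets the members apart from no other genes. With scaling by library size the share of higher genes among those called went from 24.5% to 62.6% at 6 h and from 44.3% to 72.7% at 8 h. The median line difference of the 9 was 0.05 at 6 h and -0.15 at 8 h, beside 0.0048 and -0.03 over all genes tested.

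**Figure D1:**
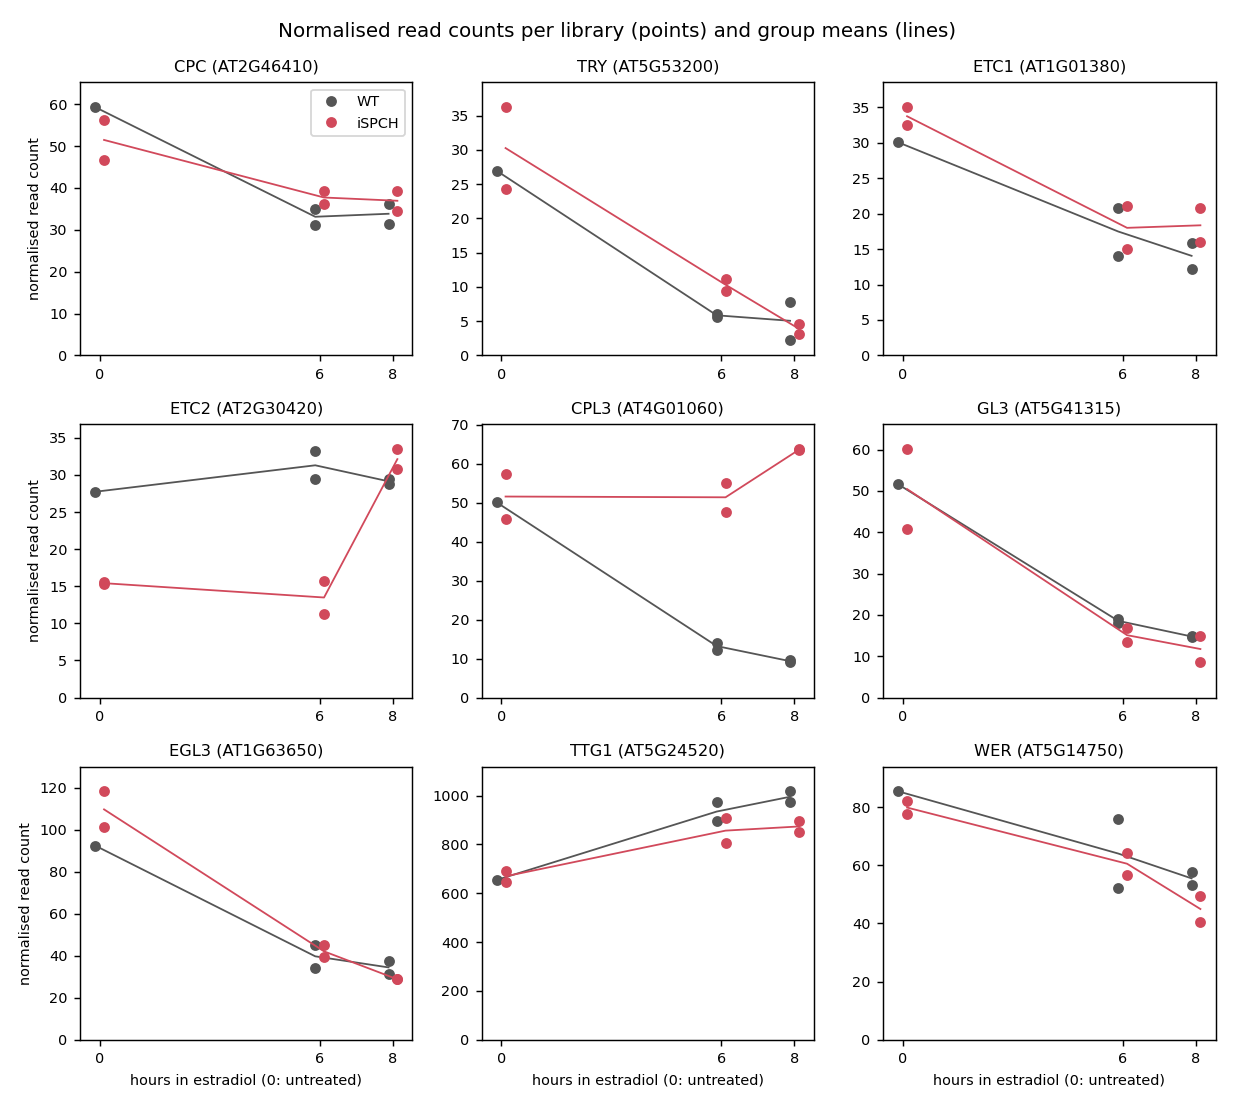
Normalised read counts of the 9 genes (y axis, own scale in each panel) against hours in estradiol (x axis, 0 for untreated), with 1 point per library, lines through the group means, WT in grey and iSPCH in red. For CPL3 the 4 induced iSPCH libraries lie between 47.6 and 63.7 and the 4 treated WT libraries between 9.07 and 14.1. CPC, TRY, ETC1, GL3, EGL3 and WER are lower in every treated library than in every untreated one. The share of all genes that part in this way was not counted. At 8 h against 0 h 29.9% of all genes were called lower in WT and 33.5% in iSPCH. TRY, ETC1 and GL3 passed the filter through untreated libraries only, so for them this is a description.

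ETC2, a single-repeat MYB that limits trichomes on leaves (chr2:12960847-12962162, minus strand), had another course. It stood at 27.7 in untreated WT, 29.4 and 33.2 in WT at 6 h, and 28.8 and 29.5 at 8 h. In iSPCH it was 15.3 and 15.6 untreated, 15.8 and 11.2 at 6 h, and 30.8 and 33.5 at 8 h. The iSPCH libraries were thus the lower ones at 0 h and 6 h and slightly the higher ones at 8 h. Their values at 0 h and 6 h rest on few reads, 16 and 16 at 0 h and 20 and 8 at 6 h. Each of these lay below a CPM of 1, so the size of the differences is uncertain. At 6 h ETC2 was lower in iSPCH, with a difference of -1.17 ± 0.30 (2.25-fold, adjusted p = 0.0348). That call was lost in 5 of 20 refits, among them DESeq2 (adjusted p = 0.256) and each of those that left out WT 6 h A (0.163), its partner B (0.231) or iSPCH 6 h B (0.232). Before induction the line difference was -0.81 ± 0.36, not called but in the same direction (95% interval -1.58 to -0.04, limma's unadjusted p = 0.0415, adjusted p = 0.628), and the gap at 6 h differed from that at 0 h by -0.36 ± 0.47 (adjusted p = 0.831). At 8 h the line difference was 0.14 ± 0.30 (95% interval -0.50 to 0.77).

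From 6 h to 8 h ETC2 rose in iSPCH by 1.21 ± 0.30 (2.31-fold, adjusted p = 0.0205), the single member called in that step, in which 7.56% of all genes were called. The call was lost with DESeq2, with the compared groups alone, and without iSPCH 6 h B, iSPCH 8 h A or iSPCH 8 h B. In WT the same step gave -0.10 ± 0.30 for ETC2, and the difference between the steps was 1.31 ± 0.42 (adjusted p = 0.227). No member was called from 6 h to 8 h in WT (limma, 0 with an unadjusted p below 0.05, and 0 by edgeR or DESeq2), where 0.412% of all genes were called. For the difference between the steps 0 members were called as well (1, ETC2, with an unadjusted p below 0.05, 0 by edgeR or DESeq2), beside 1.12% of all genes. RefSeq places TCL2 821 bases upstream of ETC2 on the same strand, and the coding sequences of the pair are 81.8% identical, with a longest shared run of 22 bases in their transcripts.

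CPC, the founding member of the family, which moves between root epidermal cells and promotes hair fate (chr2:19049021-19050369, minus strand), was at 59.3 in untreated WT and at 56.3 and 46.7 in untreated iSPCH. Under estradiol it was 31.2 to 36.3 in the 4 WT libraries and 34.6 to 39.3 in the 4 iSPCH libraries, below every untreated library in both lines. The line differences were 0.18 ± 0.23 at 6 h (95% interval -0.31 to 0.68) and 0.12 ± 0.23 at 8 h (95% interval -0.37 to 0.62). TRY (chr5:21582614-21584243, plus strand), which acts with CPC to space trichomes, was at 27.0 in untreated WT and 36.3 and 24.3 in untreated iSPCH. At 6 h it was 5.69 and 6.04 in WT and 9.45 and 11.2 in iSPCH, and at 8 h 7.86 and 2.27 in WT and 3.19 and 4.61 in iSPCH. These values rest on 2 to 38 reads per library, and the line differences of 0.72 ± 0.53 at 6 h and -0.15 ± 0.53 at 8 h carry wide intervals (-0.42 to 1.86 and -1.29 to 0.99). TRY is the neighbour of SPCH, 1975 bases away. Its counts were lower in treated than in untreated libraries of both lines, while those of SPCH rose in iSPCH only. The counts do not separate SPCH reads of the construct from those of the locus beside TRY, and a link between these genes was not tested.

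ETC1 (chr1:147043-148014, plus strand), which acts beside CPC and TRY, was at 30.0 in untreated WT and 32.4 and 35.0 in untreated iSPCH. Under estradiol it was 12.2 to 20.9 in WT and 15.0 to 21.0 in iSPCH, and the groups of the lines overlapped at 6 h. At 8 h the line difference was 0.36 ± 0.34 (95% interval -0.37 to 1.09). Among the single-repeat genes of the set, coding sequences were 69.1 to 79.8% identical, with CPL3 and ETC1 the closest pair, and the longest run shared by any pair of transcripts was 22 bases. No member had a copy elsewhere in the genome at 95% identity over 100 bases or more, and the overlaps with other genes were 2 bases for ETC1 and 36 bases for GL3.

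The bHLH partners stood lower after estradiol than before in both lines. GL3 (chr5:16529090-16533287, plus strand), the partner best known from trichomes, was at 51.6 in untreated WT, 18.0 and 19.1 at 6 h, and 14.7 and 14.8 at 8 h. The iSPCH libraries held 60.1 and 40.8 untreated, 13.4 and 16.8 at 6 h, and 8.49 and 15.0 at 8 h. EGL3 (chr1:23599413-23603164, plus strand), which shares its work with GL3, was at 92.4 in untreated WT, 34.1 and 45.3 at 6 h, and 31.4 and 37.4 at 8 h. Those of iSPCH held 118 and 101 untreated, 44.9 and 39.2 at 6 h, and 28.7 and 28.8 at 8 h. All treated libraries of both genes lay below all untreated ones. For GL3, tested because it was higher in the untreated libraries, the 8 h changes of -1.74 ± 0.42 in WT and -2.04 ± 0.35 in iSPCH are a description. EGL3 had fallen by 8 h by 1.40 ± 0.27 in WT (adjusted p = 0.000415) and by 1.89 ± 0.22 in iSPCH (adjusted p = 2.37e-06). Between the lines at 8 h GL3 differed by -0.36 ± 0.35 (95% interval -1.10 to 0.38) and EGL3 by -0.25 ± 0.22 (95% interval -0.72 to 0.23). The coding sequences of GL3 and EGL3 are 81.1% identical, with a longest shared run of 38 bases.

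TTG1, the WD40 scaffold, moved the other way (chr5:8370317-8372847, minus strand). It was at 655 in untreated WT, 973 and 897 at 6 h, and 973 and 1018 at 8 h. The iSPCH values were 647 and 692 untreated, 907 and 807 at 6 h, and 896 and 851 at 8 h. Every treated library stood above every untreated one. At 8 h TTG1 had risen by 0.60 ± 0.11 in WT (1.52-fold, adjusted p = 0.000168) and by 0.38 ± 0.09 in iSPCH (1.3-fold, adjusted p = 0.0011). The 8 h line difference of -0.19 ± 0.09 missed the threshold (adjusted p = 0.207). Per length of exon TTG1 was also the most abundant member, at 13.8 to 23.3 RPKM over the libraries. The other 8 members lay between 0.11 and 4.56 RPKM, with CPL3 at 0.60 to 4.56, CPC at 1.75 to 3.08 and WER at 1.48 to 2.73.

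WER, the R2R3 MYB activator of the root and hypocotyl epidermis (chr5:4763372-4764834, minus strand), was at 85.5 in untreated WT, 75.8 and 52.3 at 6 h, and 53.2 and 57.8 at 8 h. In iSPCH it was 82.0 and 77.8 untreated, 56.7 and 64.4 at 6 h, and 40.3 and 49.6 at 8 h. At 8 h the iSPCH libraries were the lower ones, but the difference of -0.30 ± 0.21 was not called (95% interval -0.76 to 0.15). From 0 h to 8 h WER fell in iSPCH by 0.82 ± 0.21 (adjusted p = 0.00317). In WT the change was -0.62 ± 0.26 (adjusted p = 0.054), and the difference between these changes was -0.21 ± 0.34 (adjusted p = 0.819).

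**Figure D2:**
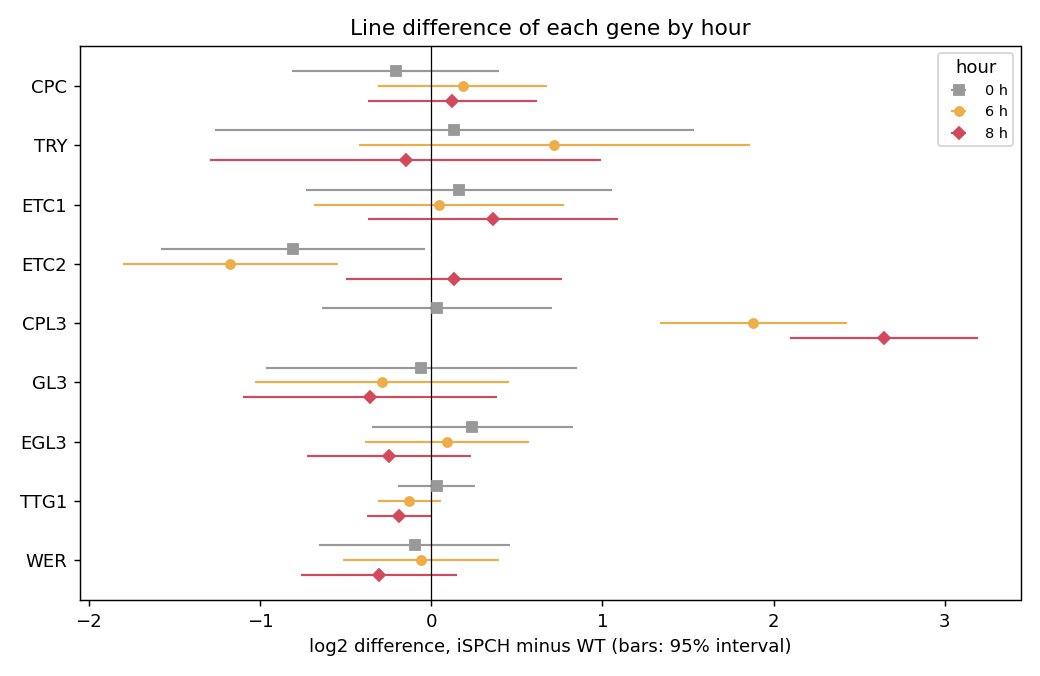
Log2 difference between iSPCH and WT (x axis) for each of the 9 genes at 0 h, 6 h and 8 h, with 95% intervals as bars. The points do not mark which differences were called at an adjusted p below 0.05. CPL3 is called at 6 h (1.88) and 8 h (2.64) and ETC2 at 6 h (-1.17), and no member is called at 0 h.

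At 0 h 0 members were called between the lines, against a single WT library (limma, 1, ETC2, with an unadjusted p below 0.05, and 0 by edgeR or DESeq2), where 0.0915% of all genes were called. The difference between the 6 h and 0 h gaps was called for 0 members (1, CPL3, with an unadjusted p below 0.05, 1 by edgeR, 0 by DESeq2) and for 0.717% of all genes. The same for 8 h was called for CPL3, 1 of 9, and for 3.26% of all genes.

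Most members changed with time in both lines, as most genes did. At 6 h against 0 h WT had 6 members called (TTG1 higher, CPC, TRY, CPL3, GL3 and EGL3 lower) where 57.2% of all genes were called. In iSPCH 5 were called (TTG1 higher, TRY, ETC1, GL3 and EGL3 lower) where 65.1% of all genes were called. At 8 h WT had TTG1 higher and CPC, TRY, ETC1, CPL3, GL3 and EGL3 lower, 7 of 9 beside 61.1% of all genes. At 8 h iSPCH also had 7 called, TTG1 and ETC2 higher and TRY, ETC1, GL3, EGL3 and WER lower, beside 68.3% of all genes. These shares are near the background and are no result about the members, and they include TRY, ETC1 and GL3, which passed the filter through untreated libraries only. The change of TRY at 8 h was -2.38 ± 0.65 in WT and -2.66 ± 0.53 in iSPCH. ETC2 rose in iSPCH by 1.01 ± 0.30 (adjusted p = 0.00688), and in WT its change was 0.07 ± 0.36 (95% interval -0.70 to 0.84). The difference between the lines' changes was 0.94 ± 0.47 for ETC2 (adjusted p = 0.328). CPC fell in WT by 0.79 ± 0.28 (adjusted p = 0.0241), and in iSPCH its change was -0.46 ± 0.23 (adjusted p = 0.0874). Those changes of CPC differed by 0.33 ± 0.37 (adjusted p = 0.712).

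**Figure D3:**
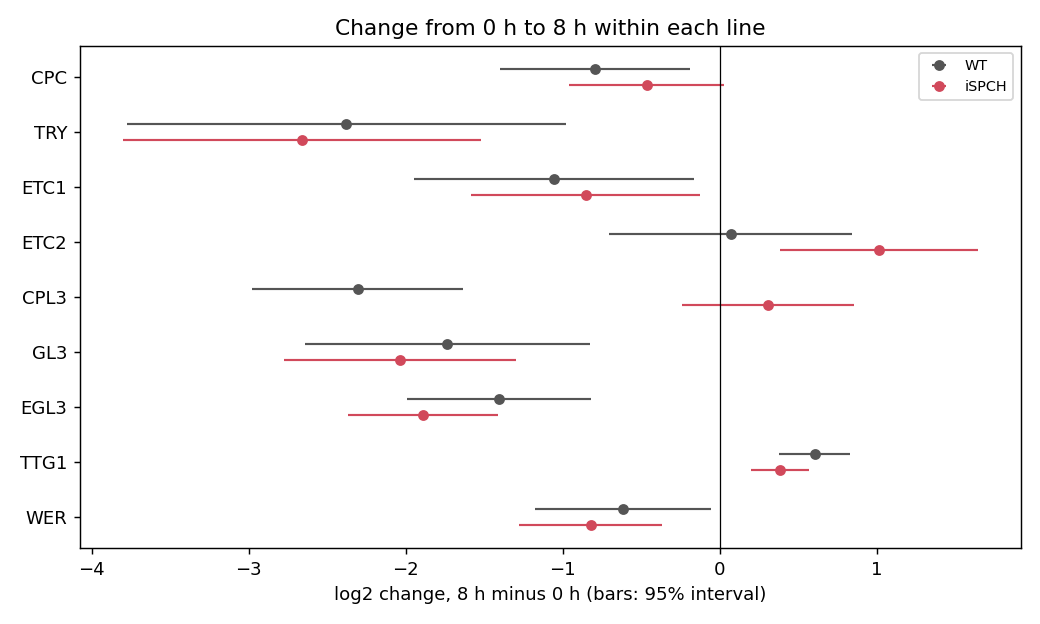
Log2 change from 0 h to 8 h (x axis) of each gene in WT (grey) and iSPCH (red), with 95% intervals as bars. The 2 lines lie apart for CPL3, at -2.31 and 0.31, and their intervals overlap for the other 8 genes.

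Further genes of the pathway were read from lists of 44 genes in 7 groups, of which 29 passed the filter. At 8 h 1 was higher in iSPCH and 5 were lower, where 4.75% of all genes were called higher and 5.98% lower. The median difference was -0.31, beside -0.03 over all genes tested. At 6 h 1 was higher and 2 were lower, beside 1.16% and 3.57% of all genes, and at 0 h 1 was higher, where 0.0915% of all genes were called. Among the other single-repeat MYB inhibitors (3 listed, 2 tested), 1 was lower at 8 h. TCL2, which represses trichomes on stems, was at 100.1 in untreated WT, 32.2 and 33.2 at 6 h, and 33.2 and 52.1 at 8 h. TCL2 in iSPCH was 85.9 and 117 untreated, 21.3 and 11.2 at 6 h, and 13.8 and 12.7 at 8 h. Those treated iSPCH values rest on few reads, 27 and 8 at 6 h and 13 and 11 at 8 h. Each of them lay below a CPM of 1, so the size of the differences is uncertain. TCL2 fell in both lines, and at 8 h the iSPCH libraries were the lower ones by -1.58 ± 0.32 (adjusted p = 0.00418). Without WT 8 h B that call was lost. The difference of TCL2 at 6 h was -1.03 ± 0.32 (adjusted p = 0.0826). At both hours every iSPCH library lay below every WT library for TCL2 and above every WT library for CPL3.

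MYBL2, a single-repeat MYB that represses anthocyanin genes, was at 122 in untreated WT and 241 and 264 in untreated iSPCH. It rose in both lines, to 1507 to 1678 in treated WT and 1213 to 1373 in treated iSPCH. MYBL2 was higher in iSPCH by 1.05 ± 0.10 at 0 h (adjusted p = 0.000227). At 6 h it was lower, with a difference of -0.42 ± 0.08 (adjusted p = 0.00865), and at 8 h the difference was -0.22 ± 0.08 (adjusted p = 0.11). The 6 h call was lost on leaving out either WT library of that hour or iSPCH 6 h B. The direction at 0 h rests on 1 WT library. TCL1, the third of the list, was at 0 to 6.68 and was not tested.

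The R2R3 MYB partners (9 listed) were sparse, and 1 was tested. GL1, the shoot counterpart of WER, held 4.53 to 21.4 over the libraries and was not tested. MYB23, which works beside GL1 and WER, held 22.4 to 46.5, and its 8 h line difference was -0.55 ± 0.26 (adjusted p = 0.225). Of the bHLH partners (2 listed, 1 tested), MYC1, a relative of GL3 that acts in root hairs and trichomes, was at 90.0 and 93.6 in WT and 128 and 134 in iSPCH at 6 h. That difference was 0.51 ± 0.13 (adjusted p = 0.0395), and it lost its call in 9 of 21 refits. At 8 h it was 0.26 ± 0.13 (adjusted p = 0.268). TT8, the bHLH of anthocyanin and seed coat pigment, held 0 to 11.4 and was not tested.

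Of the direct targets in epidermal patterning (4 listed, 4 tested), 1 was lower in iSPCH at 8 h. GL2, the homeodomain gene that carries out the fate choice, was at 407 and 425 in WT and 347 and 291 in iSPCH at 8 h, a difference of -0.39 ± 0.16 (adjusted p = 0.175). GL2 fell from 0 h to 8 h by 1.08 ± 0.20 in WT (adjusted p = 0.000568) and by 1.22 ± 0.16 in iSPCH (adjusted p = 3.27e-05). SIM, an inhibitor of cell division in trichomes, was lower by -0.39 ± 0.11 (adjusted p = 0.0346), with 459 and 498 in WT and 383 and 348 in iSPCH. The SIM call was lost in 10 of 21 refits, and 31.4% of the SIM exon bases overlap AT5G04475 on the opposite strand, whose reads cannot be told apart since the strand setting of the counting is not stated.

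Of the upstream regulators (10 listed, 7 tested) 2 were lower at 8 h. ZFP8, a zinc finger gene that promotes trichomes in the inflorescence, was at 518 and 458 in WT and 345.1 and 344.9 in iSPCH, lower by -0.50 ± 0.10 (adjusted p = 0.00406). Without WT 8 h A that call was lost. GEM, which counters GL2 and CPC expression in the root epidermis, was at 364 and 368 in WT and 305 and 280 in iSPCH, lower by -0.32 ± 0.09 (adjusted p = 0.0399), and its call was lost in 13 of 21 refits.

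Of the late trichome growth genes (7 listed, 7 tested) 1 was higher and 1 lower at 8 h. MYB16, which shapes epidermal cells and cuticle, was at 478 and 458 in WT and 151 and 226 in iSPCH at 8 h. At 6 h it was 460 and 409 in WT and 198 and 188 in iSPCH. MYB16 was lower by -1.34 ± 0.15 at 8 h (adjusted p = 5.65e-05), and its difference at 6 h was -1.17 ± 0.15 (adjusted p = 0.000658). Before induction the difference was 0.07 ± 0.18 (95% interval -0.32 to 0.46). MYB16 fell from 0 h in iSPCH by 1.07 ± 0.15 at 8 h (adjusted p = 1.98e-05), and in WT it changed by 0.34 ± 0.18 (adjusted p = 0.13). ZWI, a kinesin that shapes trichome branches, was at 818 and 800 in WT and 1099 and 1227 in iSPCH at 8 h, higher by 0.52 ± 0.09 (adjusted p = 0.00112).

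Anthocyanin genes that depend on TTG1 complexes (9 listed, 7 tested) stood lower after estradiol. Of the 7, DFR, LDOX, TT19 and UGT79B1 passed the filter through the untreated libraries only, so they had to be lower later and are left out of the count. The other 3, TT7, UGT75C1 and UGT78D2, were all called lower at 8 h against 0 h in both lines, where 29.9% of all genes were called lower in WT and 33.5% in iSPCH. Their median was -1.86 in WT and -1.94 in iSPCH, beside -0.0015 and 0.02 over all genes. UGT78D2, a flavonoid glucosyltransferase, was at 1345 in untreated WT and 1138 and 1137 in untreated iSPCH. It was at 337 and 392 in WT and 326 and 266 in iSPCH at 8 h. TT7, a flavonoid hydroxylase, fell by 1.86 ± 0.24 in WT (adjusted p = 8.13e-06) and by 2.46 ± 0.20 in iSPCH (adjusted p = 3.03e-08). Between the lines at 8 h, 0 of 7 were called (limma, 2 with an unadjusted p below 0.05, and 0 by edgeR or DESeq2), with differences of -0.30 ± 0.12 for UGT78D2 (adjusted p = 0.148) and -0.44 ± 0.20 for TT7 (adjusted p = 0.191).

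**Figure D4:**
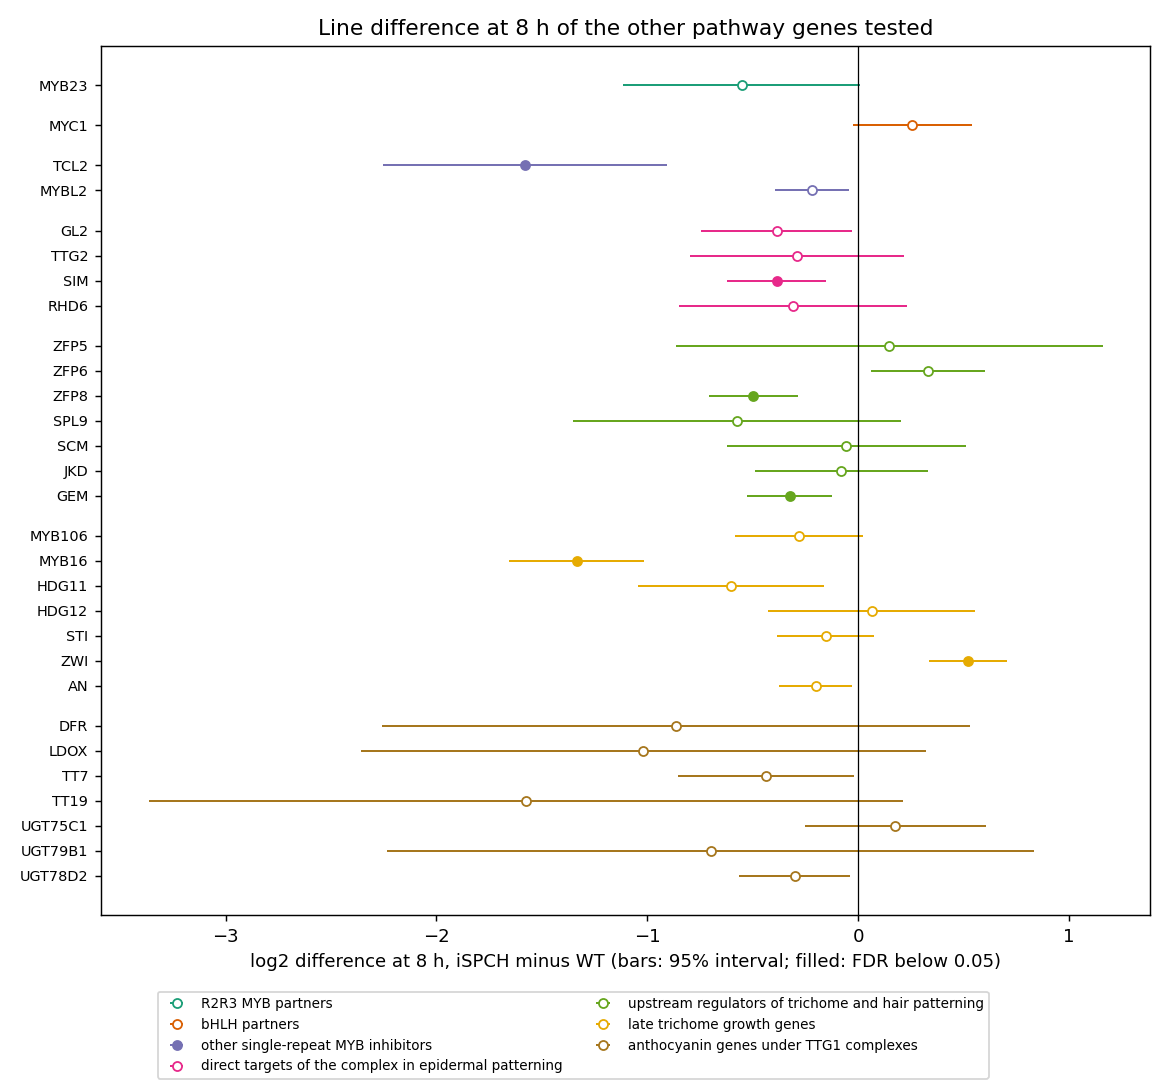
Log2 difference between iSPCH and WT at 8 h (x axis) of the 29 pathway genes tested, coloured by list, with 95% intervals as bars and filled points where called. ZWI (0.52) is called higher, and TCL2 (-1.58), SIM (-0.39), ZFP8 (-0.50), GEM (-0.32) and MYB16 (-1.34) are called lower.

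Levels of markers of other cell types are given beside these line differences. The summed level of 4 root hair markers (EXP7, COBL9, PRP3, RHS19) was 1429 in untreated WT and 1151 to 1279 in untreated iSPCH, with none of the 4 called. It was 513 to 552 in WT and 96.6 to 232 in iSPCH at 6 h, and 376 to 419 in WT and 22.3 to 34.6 in iSPCH at 8 h. All 4 were called lower at 6 h and 8 h, and none was at 0 in all libraries of a group. The sum of 3 other root markers (CASP1, SHR, SCR) was 1540 to 1547 in WT and 1177 to 1209 in iSPCH at 8 h, where CASP1 and SHR were called lower. The sum of 3 trichome markers (GL1, MYB106, SIM) was 585 to 604 in WT and 583 to 637 in iSPCH at 6 h. By 8 h it was 607 to 632 in WT and 465 to 502 in iSPCH. SIM and MYB106 make up most of this sum. Of these 2, the markers tested, SIM was called lower at 8 h and MYB106 was not. GL1, which was not tested, was at 6.11 and 4.53 in WT and 6.37 and 5.77 in iSPCH at 8 h. Of the MYB106 exon bases 76.0% overlap AT3G01142 on the opposite strand, whose reads cannot be told apart, as for SIM. The sum of 3 shoot markers (RBCS1A, LHCB1.3, LHCB2.1), which are among the abundant genes whose reads per library were not uniquely recovered and were not tested, was 1130696 to 1137523 in WT and 917682 to 929224 in iSPCH at 6 h. At 8 h it was 1074654 to 1084087 in WT and 848329 to 855530 in iSPCH. For these 3 genes the most even of the possible pairs of reads was taken, so the ranges within a group understate the spread between libraries. The part of these cell types in the values of CPL3, ETC2, TCL2 and the other genes was not tested. The pollen marker VGD1 was at 0 in all but 1 library.

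Across the 11 libraries the genes whose log2 levels ran most like those of a member were sought among genes with a mean normalised count of at least 50 (17166 or 17167 candidates). For CPL3 they were AT2G44860, AT5G14230 and AT3G14760, with Pearson r of 0.944, 0.944 and 0.942. For ETC2 they were AT1G33600, RAB18 and AT3G57990, with r of 0.944, 0.911 and 0.885. The nearest for CPC was mtACP3 (0.965), for TRY AT3G58510 (0.985), for ETC1 AT1G75150 (0.969), for GL3 BBX19 (0.988), for EGL3 AT2G05920 (0.993), for TTG1 ROD1 (0.986) and for WER AT1G67360 (0.939). The points share libraries and the split between untreated and treated seedlings, so these values describe the table and carry no test.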

How the data were processed

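The deposited table holds 1 signal value per gene and group, a group mean of read counts normalised by the authors (33602 genes, 6 columns, per the file headers and the values). CASAVA 1.8, TopHat and DESeq are named with genome TAIR10 in the submitters' processing notes, which give no roles. Counting tool, gene models and strand setting are not given in the sources. Low values of each column are whole multiples of 1 step (untreated WT) or sums of whole multiples of 2 steps, so that whole reads per library were recovered for 33492 genes, with 100% of values fitted at the deposited digits. For 110 abundant genes several pairs of reads were possible (31.2% of reads), and these were not tested. None of the 9 genes is among them. Columns left unused numbered 0.

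The reads, scaled by the authors' size factors, were put on a log2 scale after adding 1 and fitted with limma 3.58.1 in R 4.3.3 (limma-trend, robust variance, 1 coefficient per group, all 11 libraries). The lone untreated WT library was taken to vary as other groups do. The design had named a count test with limma as the choice for a file without counts, and edgeR 4.0.16 and DESeq2 1.42.0 on the recovered reads were alternatives, beside other scalings, added counts and filters and leaving out each library. Fold changes on the log2 scale with 1 added understate the change of low genes. Recovery and tests were tested on simulated data.

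The members and lists were chosen with earlier results of these data known. Named were all 9 members, each listed pathway gene past FDR 0.05 between the lines at 8 h, up to 2 of each list with no such gene, and the genes most like each member. MYBL2 and MYC1 were called at other hours. MYBL2, GL2, TCL1 and further anthocyanin genes are named outside this rule, with their values known. RPKM used RefSeq TAIR10.1 exon lengths and the assigned reads. The table holds no coordinates, so positions, sequences and overlaps are those of RefSeq TAIR10.1, in which all 53 loci of the members and lists were found. Copies were sought with BLAST+ 2.17.0.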

Additional observations from a re-analysis of the deposited data

Results flagged for a closer look

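Among the 9 members and the 29 listed pathway genes tested, the line difference changed with induction for 3, by a limma test of the difference between gaps, which called 0.717% of all genes for 6 h and 3.26% for 8 h. For CPL3 the gap between iSPCH and WT at 8 h exceeded that at 0 h by 2.61 ± 0.41 (adjusted p = 0.00254), with both iSPCH libraries above both WT libraries. For MYBL2 the gap went from 1.05 at 0 h (iSPCH higher) to -0.42 at 6 h (iSPCH lower). This change was -1.47 ± 0.13 (adjusted p = 4.56e-05). At 8 h the change from 0 h was -1.27 ± 0.13 (adjusted p = 0.000122), and both rest in part on the higher iSPCH level before induction. For MYB16 the change of the gap was -1.24 ± 0.24 at 6 h (adjusted p = 0.0284). By 8 h it was -1.41 ± 0.24 (adjusted p = 0.00508), with all 4 induced iSPCH libraries below all 4 treated WT libraries. The 6 h call of MYB16 was lost in 8 of 20 refits. These tests share the single untreated WT library, and no group had the 4 samples needed to look for a library far from the others.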

How the results depend on the processing

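No paired analysis was possible because the recovered libraries cannot be tied to the replicate numbers of the labels. Of 74 values under 21 alternatives (1445 comparisons), 1344 kept direction and side of the threshold, 79 lost the call, 3 gained it and 19 turned sign, all 19 of values not called. CPL3 was called in all refits that tested it, at 1.63 to 1.99 at 6 h, 2.26 to 2.76 at 8 h and 2.23 to 2.77 for the change of the gap. The change of the CPL3 gap at 6 h was called with library-size scaling, an added count of 5 and edgeR, so that the count of members went from 0 to 1. A mean CPM of at least 5 left TTG1 alone to be tested, with counts of 0 for the line difference at 6 h, 8 h and its change by 8 h and for iSPCH 8 h against 6 h, and of 1 for both lines at either hour against 0 h. DESeq2 gave 1 at 6 h between the lines and 0 for iSPCH 8 h against 6 h. The compared groups alone gave 1 at 6 h between the lines, 3 and 4 for WT at 6 h and 8 h against 0 h, and 0 for iSPCH 8 h against 6 h. Without 1 library the counts ran from 1 to 2 at 6 h between the lines, 5 to 8 for WT at 8 h, 3 to 5 for iSPCH at 6 h, 5 to 7 for iSPCH at 8 h against 0 h, and 0 to 1 for iSPCH 8 h against 6 h.

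Signs turned with library-size scaling for WER at 6 h (0.042), and with edgeR for ETC1 at 6 h (-0.018). The change of CPL3 from 0 h to 6 h in iSPCH, near 0 throughout, was 0.036 with TMM, 0.13 with library-size scaling, 0.014 with edgeR and 0.0037 with DESeq2. Leaving out 1 library turned signs at 6 h for WER (range -0.32 to 0.20), ETC1 (-0.22 to 0.31) and EGL3 (-0.11 to 0.29). It did so at 8 h for TRY (-0.87 to 0.57) and GL3 (-0.73 to 0.019), and at 0 h for CPL3 (-0.13 to 0.19). From 0 h to 6 h in iSPCH it did so for CPL3 (-0.16 to 0.16) and ETC2 (-0.43 to 0.030). The cause was not tested. Library-size scaling moved the median gene to 0.11 at 6 h and 0.09 at 8 h between the lines, and to 0.19 in iSPCH at 8 h against 0 h. Changes of ETC1 from 0 h lost their call in 5 or 6 refits, those of CPC in 2 each (DESeq2 in both), and those of TRY at 6 h without WT 6 h A or either iSPCH 6 h library. Depth limits the low genes, with 2 to 38 reads a library for TRY, 14 to 39 for ETC1, 8 to 36 for ETC2, 8 to 70 for CPL3 and 8 to 67 for GL3. Of the listed pathway genes, TCL2 held 8 to 130 reads a library.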
